A study of Equus caballus with 15 samples.

Results

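The genes described here are 46 genes of the endoplasmic reticulum (ER), the compartment in which secreted and membrane proteins are made and folded. They were chosen by gene symbol and comprise chaperones, co-chaperones, enzymes of disulfide bonds, stress sensors, the machinery of ER degradation and the translocon, leaving out the branch of the stress response that runs through ATF4. Of these, 45 had a row in the deposited values, among 16932 genes in all, and 1, DERL3, is not analysed here. All 45 reached a mean of 1 CPM (reads of a gene scaled to the same total in each library) over the libraries, which was required for a test, as did 11628 genes of the series. The 45 genes lie on 23 chromosomes of EquCab3.0.

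RNA was sequenced from equine macrophages grown for 5 days from peripheral blood mononuclear cells of 2 horses, 3 and 5 years old, with human M-CSF at 30 ng/ml. There were 5 conditions of 3 libraries each. Untreated macrophages received no cytokine, IL-1ß macrophages received IL-1ß at 10 ng/ml, and in the other conditions the same dose of IL-1ß was given together with an orthobiologic therapy (OT) at 25% of the medium for 24 h. The OTs were MSC-CM, which is medium conditioned by mesenchymal stromal cells of bone marrow, PRP lysate, made from platelet rich plasma, and ACS, autologous conditioned serum, made by incubating blood. Blood and marrow of the same 3 donor horses, aged 2 to 5 years, served for all OTs, so the libraries of an OT replicate the product, whereas the study describes the IL-1ß and untreated libraries as technical replicates, and their spread may be technical. In the shared fit the spread behind every p-value comes from all 15 libraries. The labels place lysis right after the treatment and a wash, and the methods place it after another day of culture. The labels tie no library to a macrophage donor, carry the same unexplained prefix Mc1 in all 15 titles, and do not say whether a replicate number stands for the same OT donor in each OT.

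Proteins enter the ER through the SEC61 channel, are held by chaperones such as BiP, receive disulfide bonds from the protein disulfide isomerases, and are sent back to the cytosol for degradation when they do not fold. When unfolded proteins accumulate, the sensors IRE1, ATF6 and PERK start the unfolded protein response, in which spliced XBP1 and cleaved ATF6 switch on genes for chaperones, folding enzymes and degradation. Macrophages secrete cytokines and display receptors, and both pass through this machinery. The values below are totals per gene, so the splicing of XBP1 and the cleavage of ATF6 were not measured.

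The CPM of a library rested on 28410734 to 47894071 reads (median 37215810). All 10 macrophage markers checked were present. They summed to 4280 to 6430 CPM untreated, 3488 to 6518 with IL-1ß, 4405 to 5383 with MSC-CM, 2132 to 4304 with PRP lysate and 3764 to 5017 with ACS, so the PRP lysate libraries lay wholly below the MSC-CM libraries, and the part of this in the results was not tested. CD14 lay between 1.38 and 4.32 CPM in all 15 libraries. On the first principal component of all genes, which held 55.4% of the variance, the scores of 3 libraries stood apart, -103 for IL-1ß replicate 3, -51.7 for PRP lysate replicate 1 and -20.7 for MSC-CM replicate 1, and those of the other 12 ranged from -8.15 to 26.6. Results were therefore also computed without these 3 libraries, which raised the number of calls over all genes in every comparison but MSC-CM against IL-1ß, where it stayed at 0. In bulk RNA, fewer cells of a type and less RNA per cell cannot be told apart.

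Over the 5 conditions, the ER genes fell into a set that differed and a larger set that did not pass the test. A moderated F test in limma on log2(CPM + 1), with Benjamini-Hochberg adjustment over all genes, put 11 of the 45 genes (24.4%) past an adjusted p of 0.05, and 5.4% of all genes tested. They were the chaperones HSPA5 and HYOU1, the co-chaperones CRELD2, SDF2L1 and MANF, the disulfide isomerases PDIA4, PDIA6 and P4HB, the transcription factor XBP1, and the degradation genes HERPUD1 and SYVN1. HSPA5, HYOU1, CRELD2, PDIA6, P4HB, XBP1 and HERPUD1 kept their call whichever of the 15 libraries was dropped. The number past the test was 7 without replicate 1 or replicate 3 of MSC-CM (3.58% and 3.41% of all genes), and 14 at most, without IL-1ß replicate 1 (6.3%). It was 21 without the 3 libraries that stand apart, where 19.0% of all genes passed. Besides the 11 genes above, these were DERL1, CALR, DNAJB9, HSP90B1, ERO1A, PPIB, TXNDC5, DNAJC3, EDEM1 and DNAJB11. By role, in the fit of all 15 libraries, 2 of 6 chaperones, 3 of 7 co-chaperones, 3 of 9 disulfide enzymes, 2 of 9 degradation genes and 0 of 11 translocon genes passed. Of the 3 genes grouped as sensors 1 passed, the transcription factor XBP1, and the genes of the sensors ATF6 and IRE1 did not. Of the translocon genes, 2 had an unadjusted p under 0.05, and edgeR and DESeq2 on the recovered reads put 0 past the test, whereas array weights put 5 past it, with 44.9% of all genes. SSR3 also passed without the filter on low values and without IL-1ß replicate 1. All 11 had higher mean levels with IL-1ß and with MSC-CM than in the other 3 conditions, as the heat map of all members shows, although single libraries overlapped for 6 of them. These were HYOU1, PDIA4, P4HB, SDF2L1, MANF and SYVN1.

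**Figure D1:**
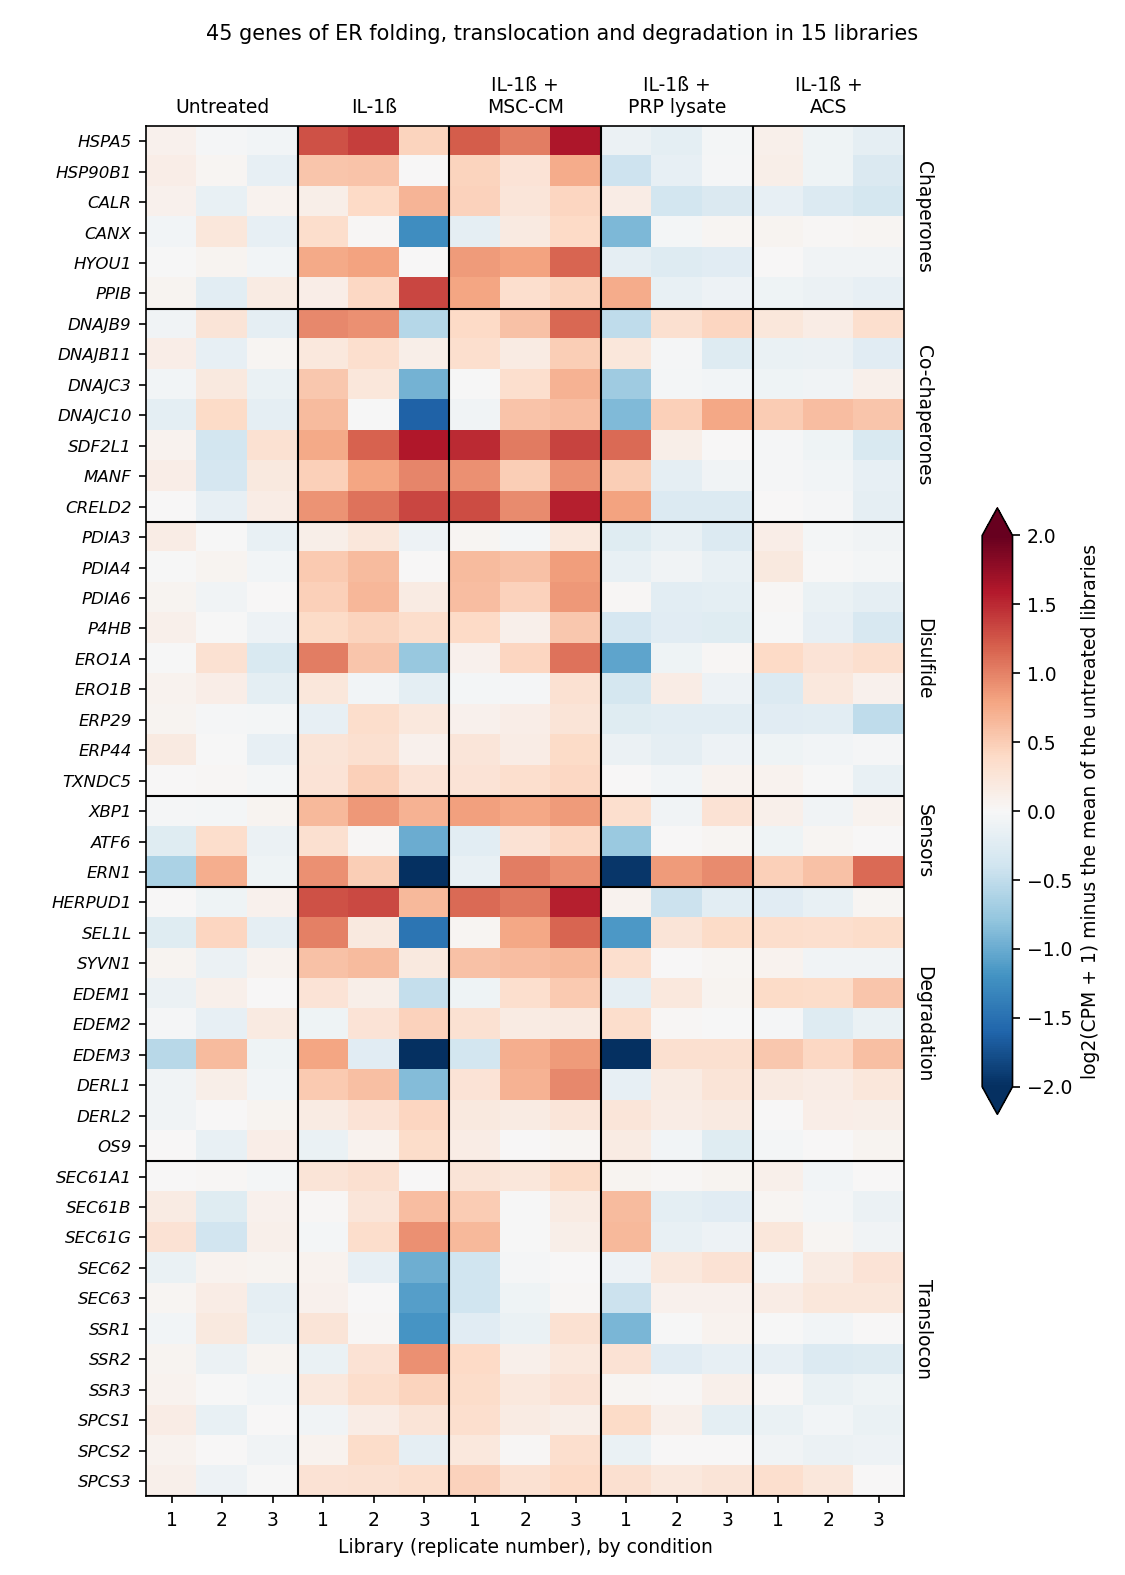
Log2(CPM + 1) of 45 ER genes (vertical axis, grouped by role) in 15 libraries (horizontal axis, by condition and replicate number), as the difference from the mean of the 3 untreated libraries, with the color scale ending at 2 in both directions. HSPA5, HYOU1, CRELD2, XBP1 and HERPUD1 are red across IL-1ß and MSC-CM libraries, with HYOU1 in IL-1ß replicate 3 near 0, and ERN1, EDEM3 and SEL1L are blue in IL-1ß replicate 3 and PRP lysate replicate 1.

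HSPA5 (chr25:29663961-29667894) encodes BiP, the main Hsp70 chaperone of the ER and the gene most used as a readout of ER stress. It measured 824, 770 and 747 CPM in the untreated libraries, 1884, 2039 and 1062 with IL-1ß, 1803, 1584 and 2391 with MSC-CM, 718, 679 and 760 with PRP lysate, and 834, 735 and 689 with ACS. Every IL-1ß and MSC-CM library thus lay above every library of the other conditions, with IL-1ß replicate 3 the lowest among them. HYOU1 (chr7:27412655-27423292), a large relative of Hsp70 that serves BiP as an exchange factor, measured 240, 252 and 233 CPM untreated, 409, 425 and 242 with IL-1ß, 438, 424 and 541 with MSC-CM, 213, 203 and 207 with PRP lysate, and 243, 231 and 231 with ACS. IL-1ß replicate 3 lay within the untreated range, and the MSC-CM libraries were clear of the low conditions.

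HSP90B1, which encodes the ER form of Hsp90, measured 841, 792 and 684 CPM untreated, 1126, 1146 and 773 with IL-1ß, 1047, 930 and 1291 with MSC-CM, 574, 683 and 754 with PRP lysate, and 838, 723 and 629 with ACS. It had the same order but overlapped, and its F test gave an adjusted p of 0.098 in limma. CALR, the calcium-binding lectin chaperone calreticulin, measured 1191, 1018 and 1175 CPM untreated, 1223, 1488 and 1808 with IL-1ß, 1544, 1326 and 1510 with MSC-CM, 1248, 871 and 919 with PRP lysate, and 1005, 934 and 878 with ACS. Its IL-1ß libraries overlapped with PRP lysate replicate 1 only, and its F test gave an adjusted p of 0.0518 in limma. CANX, the membrane-bound partner of CALR in glycoprotein folding, and PPIB, an ER peptidyl-prolyl isomerase, did not pass the F test, and their levels in IL-1ß replicate 3 were 196 and 775 CPM against means of 421 and 507 over the IL-1ß libraries.

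Among the co-chaperones, the small soluble proteins CRELD2, SDF2L1 and MANF, known as genes induced under ER stress, had the pattern of HSPA5. CRELD2 (chr28:46516040-46524215) measured 46.8, 41.2 and 51.8 CPM untreated, 87.0, 99.4 and 118 with IL-1ß, 117, 90.4 and 138 with MSC-CM, 81.4, 38.3 and 38.4 with PRP lysate, and 46.8, 45.8 and 40.7 with ACS. PRP lysate replicate 1 was far above the other libraries of the low conditions and just below the lowest IL-1ß library. SDF2L1 (chr8:5377817-5379738) measured 58.5, 42.8 and 68.7 CPM untreated, 94.6, 127 and 172 with IL-1ß, 158, 115 and 144 with MSC-CM, 123, 60.5 and 56.2 with PRP lysate, and 55.0, 52.2 and 44.7 with ACS. Here PRP lysate replicate 1 overlapped with the IL-1ß and MSC-CM libraries, and the other low libraries did not.

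MANF, a secreted protein that binds BiP, measured 140, 100 and 145 CPM untreated, 177, 220 and 250 with IL-1ß, 240, 178 and 239 with MSC-CM, 179, 112 and 120 with PRP lysate, and 124, 121 and 113 with ACS. PRP lysate replicate 1 again overlapped with the high conditions. The MANF row overlaps that of DOCK3, which had a mean of 0.954 CPM. The J-domain partners of BiP did not pass. DNAJB9 measured 21.7, 27.7 and 20.1 CPM untreated, 45.7, 44.0 and 15.2 with IL-1ß, 30.6, 35.0 and 51.8 with MSC-CM, 15.8, 29.0 and 31.3 with PRP lysate, and 26.9, 25.6 and 29.2 with ACS. The low value of IL-1ß replicate 3 lay below every untreated library, and the other IL-1ß libraries above all untreated, PRP lysate and ACS libraries. DNAJB11, which helps substrates onto BiP, averaged 124 CPM untreated (SD 12.3), 145 with IL-1ß (SD 11.0), 156 with MSC-CM (SD 18.0), 123 with PRP lysate (SD 21.2) and 111 with ACS (SD 4.59), n = 3 each. DNAJC3, known as p58IPK, averaged 124 (SD 15.4), 129 (SD 59.4), 159 (SD 38.5), 104 (SD 25.5) and 122 CPM (SD 8.87) in the same order, with 63.1 CPM in IL-1ß replicate 3.

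Disulfide bonds are formed by the protein disulfide isomerases, which ERO1 proteins reoxidize. PDIA6 (chr15:84014312-84036745) measured 246, 225 and 237 CPM untreated, 329, 374 and 265 with IL-1ß, 360, 326 and 430 with MSC-CM, 238, 205 and 206 with PRP lysate, and 240, 216 and 209 with ACS. All IL-1ß and MSC-CM libraries lay above all others. PDIA4 measured 218, 227 and 210 CPM untreated, 314, 339 and 219 with IL-1ß, 339, 330 and 391 with MSC-CM, 198, 209 and 197 with PRP lysate, and 250, 217 and 213 with ACS. IL-1ß replicate 3 was within the low range for this gene. P4HB, the founding protein disulfide isomerase, measured 842, 774 and 730 CPM untreated, 1016, 1066 and 1000 with IL-1ß, 1031, 841 and 1139 with MSC-CM, 618, 669 and 662 with PRP lysate, and 777, 693 and 626 with ACS. Its IL-1ß libraries differed little from each other, replicate 3 included.

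The oxidases had another distribution. ERO1A measured 104, 129 and 84.5 CPM untreated, 212, 154 and 61.4 with IL-1ß, 110, 141 and 221 with MSC-CM, 49.5, 98.4 and 106 with PRP lysate, and 138, 126 and 132 with ACS. IL-1ß libraries held both some of the highest and some of the lowest values, and no F test call was made (limma, adjusted p = 0.574). ERO1B had means from 22.0 to 25.0 CPM over the 5 conditions (adjusted p = 0.931 in limma). Of the other disulfide enzymes, PDIA3 had means from 919 to 1139 CPM, ERP44 from 93.8 to 123 CPM and ERP29 from 36.9 to 51.6 CPM, and none passed the F test. TXNDC5 averaged 79.9 CPM with IL-1ß (SD 7.13) and 79.6 with MSC-CM (SD 3.94), against 61.7 to 63.0 CPM in the other conditions, with an adjusted p of 0.0876 in the limma F test. Its row overlaps that of TUBB, which had a mean of 1069 CPM.

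XBP1 (chr8:10108130-10114754) is the transcription factor made active when IRE1 splices its message. Its level was 143, 142 and 152 CPM untreated, 228, 266 and 236 with IL-1ß, 257, 249 and 263 with MSC-CM, 183, 138 and 179 with PRP lysate, and 156, 139 and 153 with ACS. All IL-1ß and MSC-CM libraries lay above all others, and IL-1ß replicate 3 was between the other IL-1ß libraries. The sensors ATF6 and IRE1 themselves were not past the test. ATF6 measured 79.4, 120 and 86.3 CPM untreated, 118, 94.9 and 46.6 with IL-1ß, 80.9, 115 and 125 with MSC-CM, 55.6, 94.2 and 96.4 with PRP lysate, and 88.1, 96.7 and 94.6 with ACS. ERN1, which encodes IRE1, measured 4.98, 14.3 and 7.70 CPM untreated, between 0.622 and 16.5 with IL-1ß, where replicate 3 was the lowest, 7.36, 17.8 and 16.6 with MSC-CM, 1.40, 15.7 and 16.8 with PRP lysate, and 11.9, 13.0 and 19.3 with ACS. Within each condition the ERN1 libraries spread further apart than the condition means, and the adjusted p of the limma F test was 0.784 for ERN1 and 0.791 for ATF6.

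HERPUD1 (chr3:9952325-9962056), a membrane protein of the degradation complex and a classic stress-induced gene, had the smallest p of all ER genes. It measured 121, 114 and 128 CPM untreated, 294, 301 and 189 with IL-1ß, 265, 252 and 355 with MSC-CM, 127, 89.1 and 104 with PRP lysate, and 103, 109 and 124 with ACS. The lowest IL-1ß library was still above the highest library of the low conditions, and the F test gave an adjusted p of 0.000843 in limma. SYVN1, the ubiquitin ligase HRD1 at the core of that complex, measured 72.7, 64.6 and 73.3 CPM untreated, 106, 110 and 80.3 with IL-1ß, 106, 109 and 110 with MSC-CM, 88.7, 70.3 and 72.2 with PRP lysate, and 73.5, 66.7 and 66.8 with ACS. Only PRP lysate replicate 1 and IL-1ß replicate 3 crossed over.

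SEL1L, the partner of HRD1, measured 55.2, 88.7 and 57.8 CPM untreated, 133, 75.5 and 23.3 with IL-1ß, 67.7, 112 and 149 with MSC-CM, 29.1, 78.7 and 85.7 with PRP lysate, and 83.8, 83.4 and 84.9 with ACS. Its spread within IL-1ß covered most of its whole range. EDEM1, which marks misfolded glycoproteins for removal, measured 241, 280 and 261 CPM untreated, 314, 281 and 187 with IL-1ß, 245, 327 and 375 with MSC-CM, 230, 303 and 269 with PRP lysate, and 338, 335 and 385 with ACS. EDEM1, like ERN1, was highest on average with ACS, where every library lay above every untreated and PRP lysate library, although it passed in no comparison in the unweighted limma fit of all 15 libraries. With array weights it passed for ACS against untreated and against IL-1ß and for MSC-CM against untreated. With the 3 libraries that stand apart left out, EDEM1 was the 1 member past the test for ACS against untreated. EDEM2, EDEM3, DERL1, DERL2 and the lectin OS9 did not pass the F test, with adjusted p from 0.448 to 0.893 in limma.

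In the translocon, SEC61B, a small subunit of the channel, measured 110, 82.3 and 103 CPM untreated, 99.5, 116 and 151 with IL-1ß, 140, 96.9 and 109 with MSC-CM, 153, 84.8 and 83.2 with PRP lysate, and 101, 95.4 and 89.7 with ACS. The conditions overlapped, and its highest values were in the libraries that stand apart. Its row overlaps that of ALG2. The channel subunit SEC61A1 averaged 375 CPM untreated (SD 8.33), 431 with IL-1ß (SD 49.4), 458 with MSC-CM (SD 25.8), 386 with PRP lysate (SD 4.50) and 380 with ACS (SD 20.5), n = 3 each. SSR3, a subunit of the translocon-associated complex, was the translocon gene with the smallest p in the F test and measured 188, 206 and 222 CPM with IL-1ß and 189 to 209 with MSC-CM, against 148 to 173 in all other libraries. Its groups did not overlap, but the steps were small and the limma F test gave an adjusted p of 0.0687. The signal peptidase subunits SPCS1, SPCS2 and SPCS3, and SEC61G, SEC62, SEC63, SSR1 and SSR2, had adjusted p from 0.248 to 0.837.

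**Figure D2:**
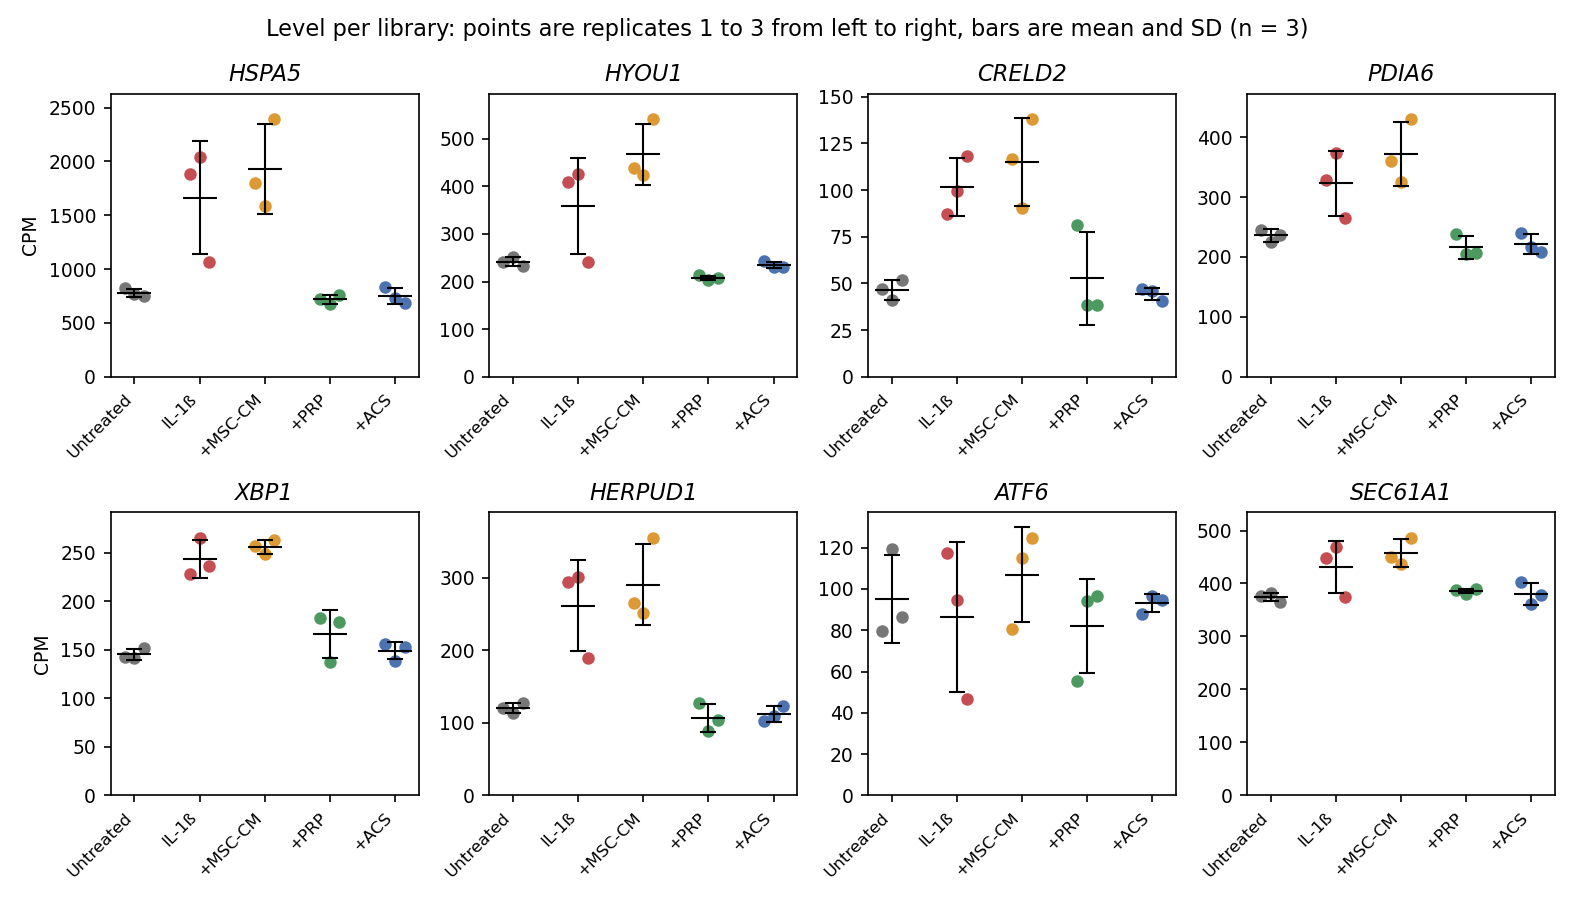
Levels in CPM (vertical axes from 0) of 8 ER genes in the 5 conditions (horizontal axes). Points are replicates 1 to 3 from left to right and bars are the mean and SD (n = 3). HSPA5, CRELD2, PDIA6, XBP1 and HERPUD1 have every IL-1ß and MSC-CM library above every other library, HYOU1 has IL-1ß replicate 3 at 242 CPM among the low libraries, and ATF6 overlaps in all conditions.

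The first comparison asks how IL-1ß changed macrophages. XBP1 rose 1.67-fold (log2 fold change 0.74, standard error 0.12, adjusted p = 0.0341 in limma) and HERPUD1 2.16-fold (1.08, standard error 0.19, adjusted p = 0.0412). HSPA5 differed 2.13-fold, with a log2 fold change of 1.03 (95% interval 0.57 to 1.50) and an adjusted p of 0.0627 in limma, so it did not pass, although it did with TMM factors, RLE factors, edgeR and DESeq2. In all, 2 members (4.44%) were past the test, both higher, where 0.155% of all genes were past it in that direction and 0.387% in either. The IL-1ß libraries lay wholly above the untreated ones for 14 members and wholly below for 0, against 7.98% and 8.22% of all genes. The median log2 fold change was 0.28 over the members and -0.07 over all genes.

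Single libraries decided this comparison, and with only its 6 libraries in the fit 0 members and 0% of all genes passed. Without IL-1ß replicate 3 the number past the test was 5, namely HSPA5, HERPUD1, HYOU1, XBP1 and PDIA4, with 0.49% of all genes, and without any other of the 6 libraries of the comparison it was 0, with 0.043% to 0.086%. XBP1 nevertheless kept log2 fold changes between 0.67 and 0.78 in these fits, and HERPUD1 between 0.96 and 1.29. Without the 3 libraries that stand apart, 12 members were past the test, all higher, with 2.27% of all genes higher. These were HERPUD1, HSPA5, HYOU1, XBP1, CRELD2, SYVN1, DNAJB9, PDIA4, SDF2L1, DERL1, PDIA6 and ERO1A.

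MSC-CM is compared with IL-1ß alone to see whether it changed the activated macrophages. With limma 0 members and 0% of all genes were past the test. An unadjusted p under 0.05 was found for 1 member, against 570 genes higher and 81 lower of 11628. edgeR, DESeq2 and the fit without the 3 libraries that stand apart also put 0 members past the test, with 0%, 0.0118% and 0% of all genes. HSPA5 averaged 1926 CPM (SD 417) with MSC-CM and 1662 (SD 525) with IL-1ß, a log2 fold change of 0.25 with a 95% interval from -0.21 to 0.71. For HERPUD1 the log2 fold change was 0.17 (-0.26 to 0.59), and for XBP1 it was 0.08 (-0.19 to 0.34). The interval of HSPA5 reaches 0.71, so equal levels are not shown. The MSC-CM libraries lay wholly above or wholly below the IL-1ß libraries for 0 members, against 7.25% and 1.54% of all genes. The gene with the smallest unadjusted p, HYOU1, averaged 468 CPM against 359, a log2 fold change of 0.42 (0.03 to 0.80, adjusted p = 0.705 in limma). In CPM all genes together were shifted, with a median of 0.16 in this comparison, 0.11 and 0.13 for PRP lysate and ACS against IL-1ß, and 0.10 for MSC-CM against untreated, and the members' changes are read against these shifts. The median of the members, 0.11 with MSC-CM against IL-1ß, became -0.07 with RLE size factors, so no direction is given for it.

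MSC-CM against untreated macrophages compares the levels reached with IL-1ß plus MSC-CM with those of resting cells. Here 9 members (20%) were past the test, all higher, against 1.39% of all genes higher and 1.92% in either direction. HERPUD1 rose 2.40-fold (log2 fold change 1.24, standard error 0.19, adjusted p = 0.0145), HSPA5 2.47-fold (1.28, standard error 0.21, adjusted p = 0.0179) and XBP1 1.76-fold (0.81, standard error 0.12, adjusted p = 0.0131), all in limma. CRELD2 rose 2.47-fold, SDF2L1 2.45-fold, HYOU1 1.93-fold, PDIA4 1.62-fold, PDIA6 1.58-fold and SYVN1 1.54-fold, with adjusted p from 0.0286 to 0.0422. For 23 members all MSC-CM libraries lay above all untreated libraries, against 21.9% of all genes, and for 0 below, against 8.93%. The median log2 fold change of the members was 0.34 and that of all genes 0.10. With TMM factors 5 members passed and their median was 0.23 (1.64% of all genes passed, 0.834% higher and 0.808% lower), with RLE factors 5 and 0.21 (1.75%, of which 0.748% higher and 0.998% lower), in edgeR 4 and 0.26 (0.973%), and in DESeq2 9 and 0.23 (4.84%). With only the 6 libraries of the comparison in the fit 10 members passed, with 7.80% of all genes.

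Leaving out any 1 of the 6 libraries from the shared fit removed most calls. Without MSC-CM replicate 2 only HERPUD1 was past the test, and without any 1 of the other 5 libraries 0 members were, where 0.0946% to 0.163% of all genes passed, while the log2 fold change of HSPA5 stayed between 1.12 and 1.41. Without the 3 libraries that stand apart, 21 members were past the test, all higher, with 13.7% of all genes higher.

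PRP lysate is compared with IL-1ß alone to ask what it changed in activated macrophages. HERPUD1 fell 2.45-fold (log2 fold change -1.27, standard error 0.19, adjusted p = 0.00186) and HSPA5 2.31-fold (-1.15, standard error 0.21, adjusted p = 0.0065). CRELD2 fell 1.93-fold, HYOU1 1.73-fold, P4HB 1.58-fold, PDIA6 1.49-fold and XBP1 1.46-fold, with adjusted p from 0.00699 to 0.0378 in limma. These 7 members (15.6%) compare with 3% of all genes past the test and lower, and 4.94% in either direction. In 14 members every PRP lysate library lay below every IL-1ß library, against 6.47% of all genes, and in 0 above, against 8.5%. The members' median log2 fold change was -0.27 while that of all genes was 0.11. HERPUD1, P4HB and HSPA5 were past the test in each of the 6 fits without 1 library of the comparison. The number past was 3 without IL-1ß replicate 2 and without PRP lysate replicate 2 (3.14% and 3.22% of all genes in either direction), 4 without PRP lysate replicate 3 (3.04%), 10 without PRP lysate replicate 1 (6.87%), and 14 without the 3 libraries that stand apart, with 5.82% of all genes lower. With only the 6 libraries of the comparison in the fit 0 members passed, with 0.482% of all genes in either direction.

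ACS against IL-1ß gave 9 members (20%) past the test, all lower, where 1.68% of all genes were past it in that direction and 3.45% in either. SDF2L1 fell 2.59-fold (log2 fold change -1.32, standard error 0.29, adjusted p = 0.0272), HERPUD1 2.34-fold (-1.19, standard error 0.19, adjusted p = 0.00575) and HSPA5 2.21-fold (-1.09, standard error 0.21, adjusted p = 0.0152), in limma. CRELD2 fell 2.29-fold, MANF 1.81-fold, XBP1 1.63-fold, CALR 1.60-fold, P4HB 1.47-fold and SSR3 1.33-fold. In 18 members the ACS libraries lay wholly below the IL-1ß libraries, against 11.2% of all genes, and in 2 wholly above, against 14.9%. The median log2 fold change was -0.28 for the members and 0.13 for all genes. HERPUD1 alone was past the test in all 6 fits without 1 library of the comparison. The number past was 1 without ACS replicate 2 (1.04% of all genes in either direction), 2 without ACS replicate 3 and without IL-1ß replicate 2 (1.06% and 1.72%), 4 without ACS replicate 1 (1.67%), 12 without IL-1ß replicate 1 (10.1%), and 14 without the 3 libraries that stand apart, with 3.45% of all genes lower. With only the 6 libraries of the comparison in the fit 0 members passed, with 0.421% of all genes in either direction.

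The OTs were also compared with each other. PRP lysate against MSC-CM put 8 members (17.8%) past the test, all lower with PRP lysate, against 2.78% of all genes lower and 4.22% in either direction. HERPUD1 was 2.72-fold lower (log2 fold change -1.44, standard error 0.19, adjusted p = 0.000975), HSPA5 2.68-fold (-1.40, standard error 0.21, adjusted p = 0.00216) and HYOU1 2.25-fold (-1.16, standard error 0.18, adjusted p = 0.00224) in limma. CRELD2, PDIA4, PDIA6, P4HB and XBP1 were 2.18, 1.76, 1.72, 1.55 and 1.54-fold lower. HERPUD1, HSPA5, HYOU1, PDIA4 and PDIA6 passed in every fit without 1 of the 6 libraries, and the number past the test was 5 without MSC-CM replicate 3 (1.88% of all genes) and 12 without PRP lysate replicate 1 (6.04%). It was 18 without the 3 libraries that stand apart, with 8.47% of all genes lower. With the replicate number as a block it was 3 in the 12 libraries without ACS, namely HERPUD1, HSPA5 and HYOU1 (1.64% of all genes), and 13 in the MSC-CM and PRP lysate libraries alone (5.56% of all genes), where P4HB was lost. With these 6 libraries and no block it was 4 (1.59% of all genes), and with RLE factors and in edgeR it was 5 (4.08% and 3.11%). For 21 members all PRP lysate libraries lay below all MSC-CM libraries, against 12.1% of all genes, and for 0 above, against 7.24%, and the median log2 fold change was -0.39 against -0.09.

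ACS against MSC-CM put 9 members (20%) past the test, all lower with ACS, against 1.1% of all genes lower and 1.92% in either direction. SDF2L1 was 2.74-fold lower (log2 fold change -1.43, standard error 0.29, adjusted p = 0.0253), HERPUD1 2.60-fold (-1.36, standard error 0.19, adjusted p = 0.00347) and CRELD2 2.59-fold (-1.33, standard error 0.26, adjusted p = 0.018) in limma. HSPA5, HYOU1, XBP1, PDIA6, SYVN1 and PDIA4 were 2.56, 1.99, 1.72, 1.68, 1.57 and 1.56-fold lower. HERPUD1, HSPA5 and XBP1 passed in every fit without 1 of the 6 libraries. The number past the test was 3 without ACS replicate 2, ACS replicate 3 or MSC-CM replicate 3 (0.585%, 0.843% and 0.542% of all genes), and 4 without ACS replicate 1 or MSC-CM replicate 1 (0.808% and 0.826%). It was 19 without the 3 libraries that stand apart, with 5.74% of all genes lower, and 18 with only the 6 libraries of the comparison in the fit, with 13.2% of all genes in either direction. In 27 members the ACS libraries lay wholly below the MSC-CM libraries, against 22.2% of all genes, and in 1 wholly above, against 12.9%.

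Between PRP lysate and ACS no difference was found among the members. In limma 0 members were past the test, where 0.103% of all genes passed. An unadjusted p under 0.05 was found for 0 members, against 209 genes higher and 394 lower of 11628. edgeR and DESeq2 also put 0 members past the test, with 0.0804% and 0.616% of all genes they tested. The PRP lysate libraries lay wholly above the ACS libraries for 4 members and wholly below for 8, against 6.66% and 8.97% of all genes. HSPA5 averaged 719 CPM (SD 40.3) with PRP lysate and 753 (SD 74.1) with ACS, a log2 fold change of -0.06 with a 95% interval from -0.52 to 0.40. For HERPUD1 it was -0.08 (-0.50 to 0.34), and for SDF2L1, where PRP lysate replicate 1 was high, it was 0.56 (-0.07 to 1.19). Against untreated macrophages, too, 0 members passed in limma with PRP lysate and 0 with ACS, where 2.59% and 0.473% of all genes passed. At an unadjusted p under 0.05 limma had 1 member with PRP lysate, against 777 genes higher and 712 lower of 11628. With ACS it had 2 members, against 433 genes higher and 456 lower. Among the members edgeR and DESeq2 made 0 calls. They called 1.81% and 4.42% of all genes they tested for PRP lysate, and 0.161% and 1.53% for ACS. Wholly above and wholly below untreated were 2 and 5 members with PRP lysate, against 10.1% and 8.41% of all genes, and 4 and 3 members with ACS, against 16.3% and 10%. HSPA5 differed from untreated by -0.12 on the log2 scale with PRP lysate (-0.58 to 0.34) and by -0.06 with ACS (-0.52 to 0.41). HERPUD1 differed by -0.19 (-0.61 to 0.23) and -0.11 (-0.53 to 0.31). Each of these intervals spans 0, so neither a difference within its bounds nor equality is shown. Without the 3 libraries that stand apart the counts stayed at 0 for PRP lysate against ACS and against untreated, where 0.636% and 7.07% of all genes passed. EDEM1 alone passed for ACS against untreated, where 4.18% of all genes did.

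**Figure D3:**
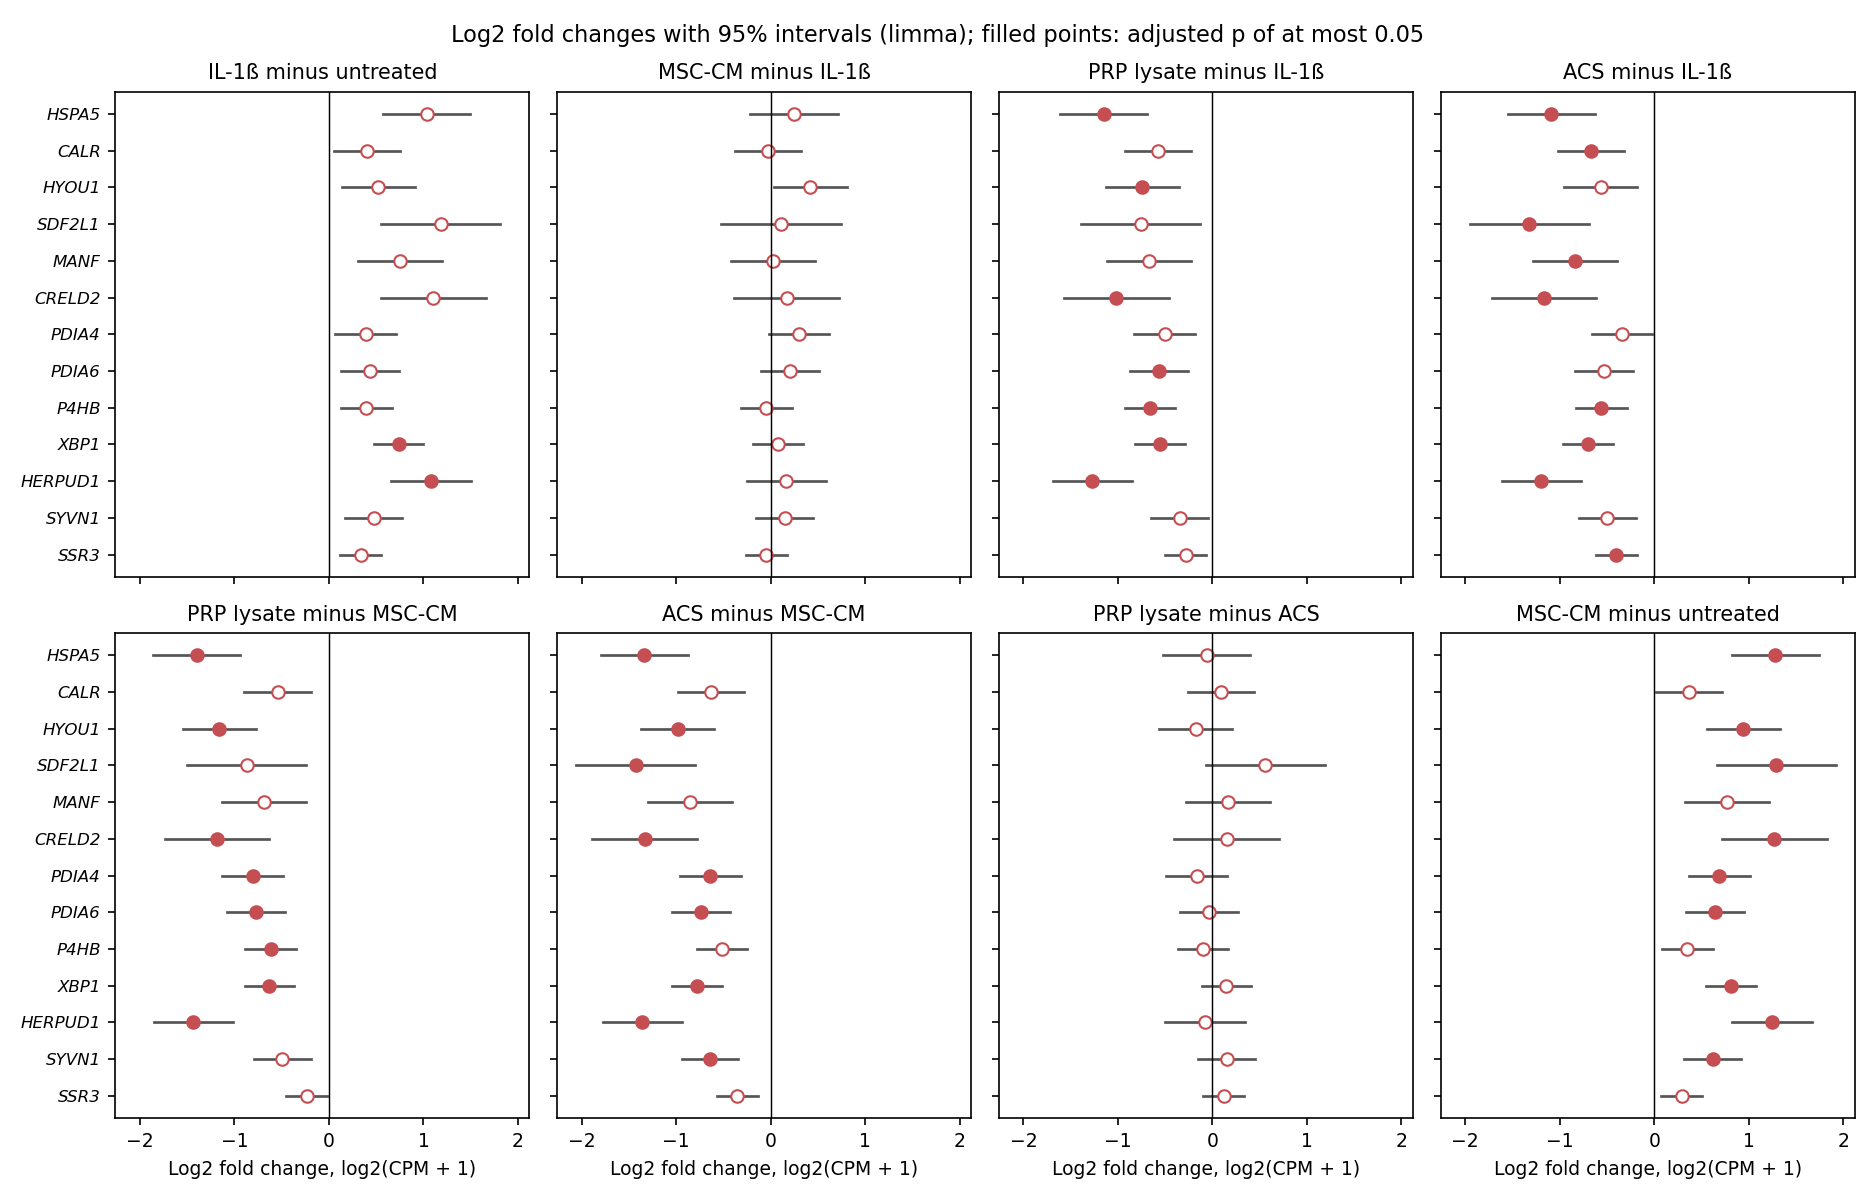
Log2 fold changes on the log2(CPM + 1) scale (horizontal axes) with 95% intervals from limma for the 13 ER genes past the test in at least 1 comparison (vertical axes), in 8 comparisons. Filled points have an adjusted p of at most 0.05. All filled points lie left of 0 for PRP lysate and ACS against IL-1ß and against MSC-CM, and right of 0 for IL-1ß and MSC-CM against untreated.

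**Figure D4:**
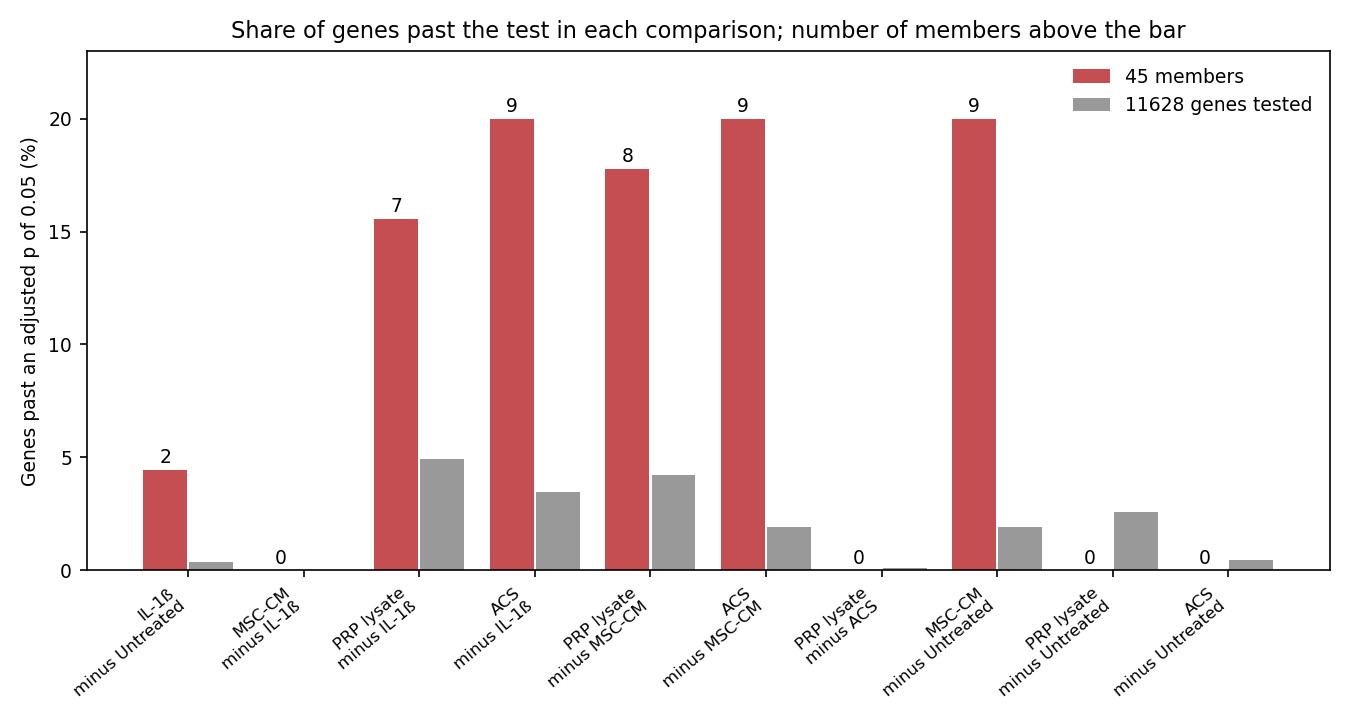
Percentage of genes past an adjusted p of 0.05 (vertical axis, from 0) among the 45 members (red) and among all 11628 genes tested (grey) in each of 10 comparisons (horizontal axis), with the number of members above the red bar. The 3 comparisons with 9 members stand at 20%, and 4 comparisons have 0 members.

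Where a fold change of at least 2 was required as well, 1 member was left for IL-1ß against untreated (0.292% of all genes), 3 for PRP lysate and 4 for ACS against IL-1ß (3.09% and 2.21%), and 4 for each against MSC-CM (2.61% and 1.23%). For MSC-CM against untreated 4 were left (0.662%), and 0 for MSC-CM against IL-1ß (0%), PRP lysate against ACS (0.0946%), and PRP lysate and ACS against untreated (1.6% and 0.37%).

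Across the 10 comparisons, 13 members (28.9%) were past the test at least once and 32 in none, against 8.72% of all genes at least once. HERPUD1 and XBP1 passed in 6 comparisons, HSPA5 and CRELD2 in 5, HYOU1 and PDIA6 in 4, P4HB, PDIA4 and SDF2L1 in 3, SYVN1 in 2, and CALR, MANF and SSR3 in 1 each. Comparisons that share the IL-1ß, MSC-CM or untreated libraries are not independent. Those with no library in common still take the variance of each gene from the same fit of all 15 libraries, so they are not independent either. Between comparisons with no library in common, CRELD2, HERPUD1, HSPA5, HYOU1, PDIA6 and XBP1 were past the test both for PRP lysate against IL-1ß and for ACS against MSC-CM, which is 85.7% of the former list and 66.7% of the latter, against 25.3% and 65.0% for the calls among all genes. CRELD2, HERPUD1, HSPA5, P4HB and XBP1 were past it both for ACS against IL-1ß and for PRP lysate against MSC-CM, which is 55.6% and 62.5%, against 50.9% and 41.5% among all genes.

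The libraries that stand apart differed from the others of their condition by the length of the genes. Among the 15 members with the longest genomic span (25.7 to 200 kb in EquCab3.0), 2 were higher in IL-1ß replicate 3 than the mean of the other IL-1ß libraries, and the median log2 difference was -1.16, against -0.77 for all genes of that span. Among the 15 with the shortest span (1.47 to 9.73 kb), 10 were higher, with a median of 0.22 against 0.24 for all genes. PRP lysate replicate 1 had medians of -0.66 and 0.42 for the longest and the shortest members, against -0.43 and 0.29 for all genes of those spans. MSC-CM replicate 1 had -0.40 and 0.12, against -0.25 and 0.10. EDEM3, at 2.39 CPM in IL-1ß replicate 3 against 41.0 and 19.7 CPM in the others, and ERN1 were the members furthest below their condition there. HSPA5, with a span among the short ones, was also low in that library. The part of span in the results above was not tested, and counts without these libraries stand with the comparisons.

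**Figure D5:**
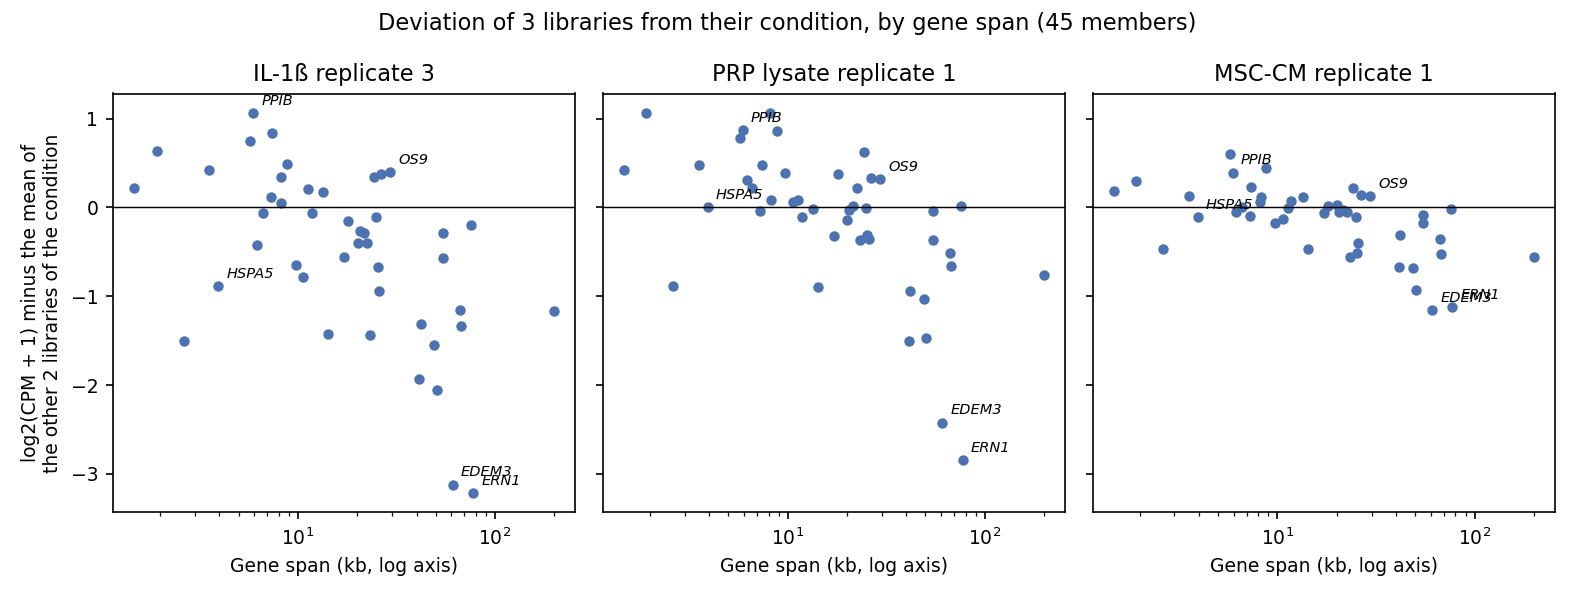
Difference in log2(CPM + 1) between 1 library and the mean of the other 2 of its condition (vertical axis) against genomic span in kb (horizontal log axis) for 45 ER genes, in IL-1ß replicate 3, PRP lysate replicate 1 and MSC-CM replicate 1. Long genes such as ERN1 and EDEM3 lie far below 0 in IL-1ß replicate 3 and PRP lysate replicate 1, and PPIB lies above 0 in all 3.

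Markers of other cells were measured as well, since plasma cells and other secretory cells express these genes strongly. The summed level of 5 B cell markers was 25.9 to 48.6 CPM with IL-1ß and 23.1 to 29.8 with MSC-CM, against 14.2 to 22.1 untreated, 12.6 to 18.7 with ACS and 11.0 to 30.2 with PRP lysate, so every IL-1ß and MSC-CM library lay above every untreated and ACS library. The summed level of 7 plasma cell markers went the other way, with 1470 to 1691 CPM with IL-1ß and 1629 to 1804 with MSC-CM against 2030 to 2482 in the other conditions, while TNFRSF17, which defines plasma cells, was at most 2.42 CPM and MZB1 lay between 2.31 and 14.0 CPM. The 6 T cell markers summed to 831 to 1652 CPM with IL-1ß and 1170 to 1259 with MSC-CM, against 595 to 885 untreated, 719 to 921 with ACS and 747 to 1696 with PRP lysate. The neutrophil markers in the table, 2 of the 5 listed, summed to 485 to 545 CPM with PRP lysate and 530 to 759 with ACS, against 308 to 391 with IL-1ß, 268 to 430 with MSC-CM and 324 to 389 untreated, so every PRP lysate and ACS library lay above all others. These sums were nearly all CSF3R, as MPO was at most 3.81 CPM. The 5 endothelial markers summed to 9.09 to 17.8 CPM with IL-1ß and 12.2 to 20.2 with MSC-CM, against 23.4 to 40.5 untreated, 22.4 to 27.4 with ACS and 14.9 to 32.0 with PRP lysate, and of these VWF and CLDN5 stayed under 1 CPM in all libraries. Sums of platelet markers (3 in the table) were 3.31 to 5.17 CPM untreated and 6.35 to 41.1 in the other conditions. The 5 NK cell markers in the table summed to 237 to 632 CPM with PRP lysate, wholly above the 153 to 231 untreated, and to 186 to 411 with IL-1ß, 225 to 277 with MSC-CM and 201 to 310 with ACS, which overlapped with both. Dendritic cell sums ranged from 150 to 349 CPM and overlapped between all conditions. Markers of stromal cells, the cells that condition MSC-CM, summed to at most 2.94 CPM. Their part in the results was not tested.

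Other genes of the ER were taken from a list of 106 genes for glycosylation, translocation, folding, degradation, export and signaling. Of 102 tested, 4 were past the limma F test, namely WFS1, QSOX1, SERPINH1 and MOGS, and at most 2 passed in any comparison. The 4 are 3.92% of the list, near the 5.4% of all genes. None of the 102 passed in IL-1ß against untreated, MSC-CM against IL-1ß or PRP lysate against ACS. QSOX1, a sulfhydryl oxidase, averaged 6.65 CPM with IL-1ß (SD 2.36) and 15.3 with ACS (SD 1.21), a rise of 1.13 on the log2 scale (adjusted p = 0.0113 in limma), while P4HB fell in the same comparison. SERPINH1, a collagen chaperone, fell 1.70-fold with PRP lysate against IL-1ß, from 51.6 CPM (SD 6.73) to 30.3 (SD 5.39), with an adjusted p of 0.0174. WFS1, an ER membrane protein linked to calcium, averaged 140 CPM untreated (SD 4.97) and 78.1 with MSC-CM (SD 3.32), a log2 fold change of -0.84 (adjusted p = 0.0145). Of 7 genes of the ATF4 branch, TRIB3, CHAC1 and ASNS were higher with IL-1ß than untreated and with MSC-CM than untreated, and lower with PRP lysate and with ACS than with MSC-CM. Against IL-1ß, TRIB3 and CHAC1 were lower with PRP lysate, and TRIB3, CHAC1, ASNS and ATF4 with ACS. With IL-1ß TRIB3 averaged 68.5 CPM (SD 9.08) against 16.5 untreated (SD 2.44), with a log2 fold change of 1.99 (adjusted p = 0.000337 in limma).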

How the data were processed

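The 15 libraries were made from polyadenylated RNA with the TruSeq kit. The authors worked in Partek Flow, where reads were trimmed at a Phred score of 20, STAR 2.7.3 aligned them to EquCab3.0 and HTSeq counted them on Ensembl genes, and they deposited CPM, the counts of each library scaled to a common total. The strand setting of counting is not given in the sources used here, so genes whose rows overlap are uncertain. The rows of 7 members overlap that of another gene, among them SSR1 with TUBB (mean 1069 CPM) and DERL1 with ZHX2 (15.2 CPM). The columns summed to 982495 to 991421 CPM, and 0 columns were left unmatched.

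Groups came from the sample labels. Replicate numbers were checked for pairing by the correlation of deviations from the condition means over all genes tested. MSC-CM and PRP lysate libraries of the same number correlated at 0.255 to 0.635 in all 3 pairs, and a block by number was also fitted to them. MSC-CM replicate 3 with PRP lysate replicate 2 correlated at 0.470, and MSC-CM replicate 2 with PRP lysate replicate 3 at 0.388. The correlations therefore do not show that the numbers pair the libraries of MSC-CM and PRP lysate. Values printed for their comparison come from the fit without the block, and the blocked counts stand beside them. No other set of conditions had all 3 correlations of the same number above 0.1. ACS libraries carry no replicate number in their labels and were numbered in the order deposited. The 11628 genes averaging 1 CPM or more were tested with limma 3.58.1 (intensity trend) on log2(CPM + 1), with all 15 libraries and 5 conditions in 1 model (10 residual degrees of freedom) and Benjamini-Hochberg adjustment within each comparison. Fold changes in words are ratios of mean CPM. Log2 fold changes are differences of log2(CPM + 1), which understates the change of low genes. Dividing by the smallest step of a library gave whole reads, with 99.9% of 213968 values above 0 within 0.02 of a whole read. They served edgeR 4.0.16 and DESeq2 1.42.0, which put 10 and 15 members past the test over the 5 conditions, with 3.83% and 11.0% of all genes they tested. At 1 CPM a gene had 28.4 reads in the shallowest library.

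Also tried were no filter on low values, a pseudocount of 0.1, TMM and RLE factors, array weights, only the groups compared, a replicate block, a fold change of at least 2, and leaving out each library. Leaving out 3 libraries together and a 12-library fit without ACS were added after seeing the data, as was the block in the MSC-CM and PRP lysate libraries alone. Members, lists and named genes were chosen with earlier results of these data known. The rule for named genes took a fixed set of members of each role, the members past the test in each comparison, and genes of the wider lists past the test. Steps were tested on simulated data. R 4.3.3, Python 3.11.15 and matplotlib 3.10.9 were used.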

Additional observations from a re-analysis of the deposited data

How the results depend on the processing

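Among 844 of the repeats for single genes the direction and the side of the threshold held, 248 lost the threshold, 19 gained it and 14 changed sign. Counts of members past the test moved as follows, named by comparison. Array weights (gene by gene) gave 18 for IL-1ß against untreated, 27 for PRP lysate and 28 for ACS against IL-1ß, 24 and 27 for the same OTs against MSC-CM, 24 for MSC-CM and 1 for ACS against untreated, and 31 over the 5 conditions, where the calls over all genes were 10.1%, 28.6%, 34.6%, 22.4%, 25.8%, 20.5%, 9.32% and 44.9%. With only the groups compared in the fit the counts were 0 for IL-1ß against untreated and for PRP lysate and ACS against IL-1ß, 4 and 18 for PRP lysate and ACS against MSC-CM, and 10 for MSC-CM against untreated. Requiring a fold change of at least 2 left 1 for IL-1ß against untreated, 3 and 4 for PRP lysate and ACS against IL-1ß, and 4 each for both against MSC-CM and for MSC-CM against untreated. DESeq2 gave 8 for IL-1ß against untreated, and 11 and 18 for PRP lysate and ACS against IL-1ß, with 2.45%, 7.46% and 6.64% of all genes, and 9 for MSC-CM against untreated. edgeR gave 5 for PRP lysate against MSC-CM and 4 for MSC-CM against untreated (3.11% and 0.973% of all genes). RLE factors gave 5 for both of these (4.08% and 1.75%), and TMM factors 5 for the latter (1.64%). Without the 3 libraries that stand apart the counts were 12, 14, 14, 18, 19, 21 and 1, for IL-1ß against untreated, PRP lysate and ACS against IL-1ß, both against MSC-CM, and MSC-CM and ACS against untreated, and 21 over the 5 conditions, with 3.53%, 10.1%, 6.64%, 13.0%, 8.72%, 17.1%, 4.18% and 19.0% of all genes. Leaving out 1 library gave 0 to 5 for IL-1ß against untreated, 3 to 10 and 1 to 12 for PRP lysate and ACS against IL-1ß, 5 to 12 and 3 to 8 against MSC-CM, 0 to 1 for MSC-CM against untreated, and 7 to 14 over the 5 conditions. The calls over all genes in these fits ranged from 0.043% to 0.49%, 3.04% to 6.87%, 1.04% to 10.1%, 1.88% to 6.04%, 0.542% to 1.34%, 0.0946% to 0.163% and 3.37% to 8.43%.

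The correlations do not show that replicate numbers pair the MSC-CM and PRP lysate libraries, or the 12 libraries as a whole. Of 18 pairs with the same number, 11 had correlated deviations above 0.1 (range -0.775 to 0.635), as did 16 of 36 pairs with different numbers. A replicate block in the 12 libraries without ACS gave 0 for IL-1ß against untreated, 1 for PRP lysate against IL-1ß, 3 for PRP lysate against MSC-CM, 0 for MSC-CM against untreated and 1 over the 4 conditions, where the same 12 libraries without it gave 0, 4, 7, 1 and 8. Of all genes, 0.0516%, 1.86%, 1.64%, 0.043% and 1.13% passed with the block. Without it 0.0516%, 3.29%, 2.71%, 0.155% and 2.94% did, so calls over all genes fell as well. For PRP lysate against IL-1ß the 1 left was HERPUD1. The block in the MSC-CM and PRP lysate libraries alone gave 13 between them.

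Of 450 values (45 members in 10 comparisons), 155 changed sign when some 1 library was left out, among them 0 of the 44 past the test. Large values were among them, such as EDEM3 for IL-1ß against untreated, at -0.76 and ranging from -1.54 to 0.28. Of the values named by the rule, those that changed sign follow. For MSC-CM against IL-1ß, HERPUD1 was -0.011 with RLE factors, -0.0025 with DESeq2 and -0.051 to 0.282 with 1 library left out, the lowest without IL-1ß replicate 3. HSPA5 was -0.017 with array weights, -0.010 without the 3 libraries and -0.047 to 0.424 with 1 library left out. XBP1 was -0.068 with TMM factors, -0.10 with RLE factors, -0.023 with array weights, -0.062 with edgeR and -0.11 with DESeq2. With 1 library left out, PRP lysate against ACS ranged from -0.207 to 0.044 for HERPUD1 and from -0.124 to 0.014 for HSPA5, and ACS against untreated from -0.131 to 0.0066 for HSPA5. The cause was not tested. Low values rest on the fewest reads, the lowest being ERN1 at 0.622 CPM in IL-1ß replicate 3.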
